A study of Mus musculus with 2 samples.

Results

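The genes described here drive DNA replication and cell division: 41 genes chosen by name, of 20660 genes that could be named on the array. They were measured in liver RNA of wild-type (WT) mice on the C57B6J background and of CREBH-Tg mice. The transgene is a human cDNA that encodes active CREBH, with expression chiefly in the liver. CREBH is a membrane-bound transcription factor of hepatocytes, encoded by Creb3l3. Both genotypes ate the HFHS diet for 12 weeks; age, sex and the number of mice are not given in the sources used here. RNA of several livers was combined into 1 pool per genotype and read on 1 Agilent array, so there were no replicates and no test of any difference. All differences below are described by size, and none can be set against the spread between animals.

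Cells copy their DNA in S phase and divide in mitosis. Before S phase, Cdc6 and Cdt1 load the MCM helicase ring onto DNA. Cyclins of the D and E type with the kinases Cdk4 and Cdk2 then push the cell past G1, and cyclins A and B with Cdk1 drive it into mitosis. Inhibitors such as p21 (Cdkn1a), p27 (Cdkn1b) and p18 (Cdkn2c) hold these kinases back. Most hepatocytes of an adult liver are quiescent and often polyploid, and re-enter the cycle after injury or tissue loss. Whole-liver RNA also holds transcripts of other cells, and fewer cycling cells and less RNA per cycling cell cannot be told apart.

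The replication and mitosis genes are known to be controlled through different promoter elements, E2F sites for S phase and the cell cycle homology region (CHR) with CCAAT boxes for mitosis. RefSeq promoter windows of GRCm38.p6, 250 bases before to 50 bases after a gene start, were found for 34 of the 41 genes. Those of Mcm4, Gins2, Ccnd1, Ccnd2, Ccne2, Ccna2 and Aurkb were not used here. An E2F motif (TTTGGCGC, TTTCCCGC, TTTGGCGG or TTTCCCGG, either strand) lay in the windows of 6 of 12 replication genes (50%) and 1 of 12 mitosis genes. It lay in those of 3.79% of all 27025 genes with a window. The CHR motif (TTTGAA, either strand) lay in those of 1 of 12 replication genes and 8 of 12 mitosis genes (66.7%), against 20.2% of all genes. A CCAAT box (CCAAT, either strand) was in the windows of 8 replication and 11 mitosis genes, against 41.1% of all genes. None of the 6 inhibitor and Gadd45 genes had an E2F or CHR match. No motif contains another, and a match is a description of sequence alone.

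**Figure D1:**
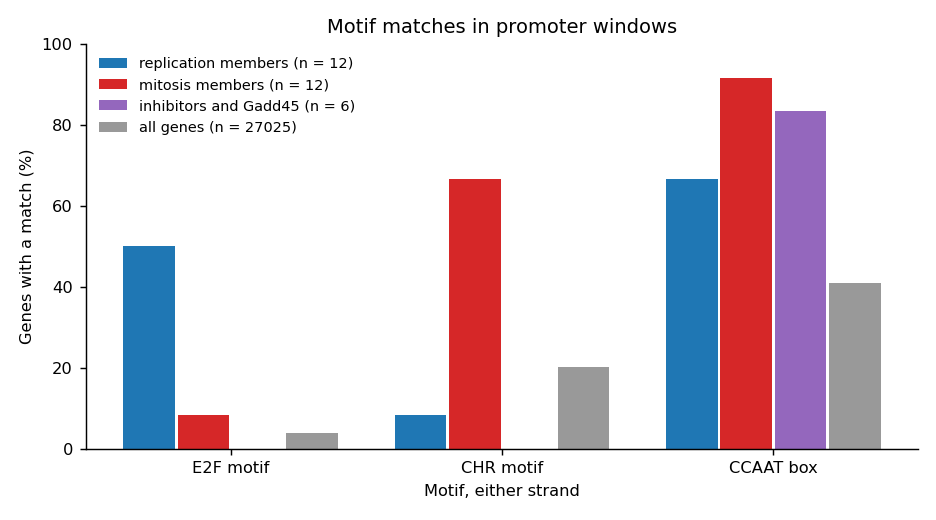
Share of genes, in percent, whose promoter window holds an E2F motif, a CHR motif or a CCAAT box, for 12 replication, 12 mitosis and 6 inhibitor and Gadd45 genes and for all 27025 genes with a window. E2F matches stand highest in the replication genes (50%) and CHR matches in the mitosis genes (66.7%).

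The 180 bases directly before the start are shown for 6 genes, 2 of replication with E2F matches, 3 of mitosis with CHR matches, and Troap, farthest from 0 among the genes detected on both arrays, which has neither. Capitals mark E2F, CHR and CCAAT matches, and each sequence runs 5′ to 3′ on the strand of its gene.
Mcm5, chr8:75109329-75109508, plus strand: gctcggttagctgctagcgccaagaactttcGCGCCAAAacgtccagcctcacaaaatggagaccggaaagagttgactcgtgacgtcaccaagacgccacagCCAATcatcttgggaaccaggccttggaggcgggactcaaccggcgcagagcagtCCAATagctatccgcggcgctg
Mcm6, chr1:128359706-128359885, minus strand: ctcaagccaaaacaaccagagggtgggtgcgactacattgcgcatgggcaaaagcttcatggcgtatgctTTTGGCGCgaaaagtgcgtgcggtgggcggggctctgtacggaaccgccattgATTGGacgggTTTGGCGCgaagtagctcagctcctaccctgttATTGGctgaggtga
Cdk1, chr10:69352913-69353092, minus strand: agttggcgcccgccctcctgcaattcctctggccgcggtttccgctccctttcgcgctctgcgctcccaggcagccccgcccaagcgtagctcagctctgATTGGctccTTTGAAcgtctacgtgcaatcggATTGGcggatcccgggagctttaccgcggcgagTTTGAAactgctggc
Ccnb2, chr9:70421555-70421734, minus strand: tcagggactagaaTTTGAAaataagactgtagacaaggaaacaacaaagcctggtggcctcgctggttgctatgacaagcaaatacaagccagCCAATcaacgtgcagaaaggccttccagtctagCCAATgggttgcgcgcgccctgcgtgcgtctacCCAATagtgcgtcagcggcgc
Cdc20, chr4:118437344-118437523, minus strand: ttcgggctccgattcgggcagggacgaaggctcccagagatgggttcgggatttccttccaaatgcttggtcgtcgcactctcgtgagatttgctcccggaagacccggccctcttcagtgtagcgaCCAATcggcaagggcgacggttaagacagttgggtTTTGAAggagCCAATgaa
Troap, chr15:99074793-99074972, plus strand: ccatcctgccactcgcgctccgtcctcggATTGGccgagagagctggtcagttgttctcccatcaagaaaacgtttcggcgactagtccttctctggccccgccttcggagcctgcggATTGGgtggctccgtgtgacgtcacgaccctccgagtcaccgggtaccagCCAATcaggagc

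In these stretches Mcm6 holds 2 E2F matches, the nearer beginning 47 bases before the start, and Mcm5 holds 1, beginning at 149. Cdk1 holds 2 CHR matches, beginning 71 and 15 bases before the start, and Cdc20 holds 1, at 18. That of Ccnb2 begins at 167. Troap holds 3 CCAAT matches.

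Of the 41 genes, the scanner software's flag put 36 well above background in WT and 35 in CREBH-Tg. Of all 20660 named genes, 68.4% were detected in WT and 70.9% in CREBH-Tg. The 35 members detected on both are 85.4% of the 41 genes, against 67.2% of all named genes. Detection differed by role: 13 of 14 replication genes, 6 of 7 cyclins and kinases of G1 and S phase, and all 6 inhibitor and Gadd45 genes were measured on both arrays, but 10 of 14 mitosis genes. The checkpoint kinases Bub1 and Bub1b, the chromosome passenger kinase Aurkb, the topoisomerase Top2a and the cyclin Ccne2 stayed below that mark in both pools. Cdc6 was detected in WT only, as were 245 of all 20660 named genes. In CREBH-Tg only, 762 named genes and none of the 41 were detected. Hepatocyte markers were detected on both arrays in 10 of 10 cases. The mouse Creb3l3 probe gave a log2 ratio of -0.0041, but the transgene is human, and whether this probe reads it was not tested, so the labels could not be checked with it.

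**Figure D2:**
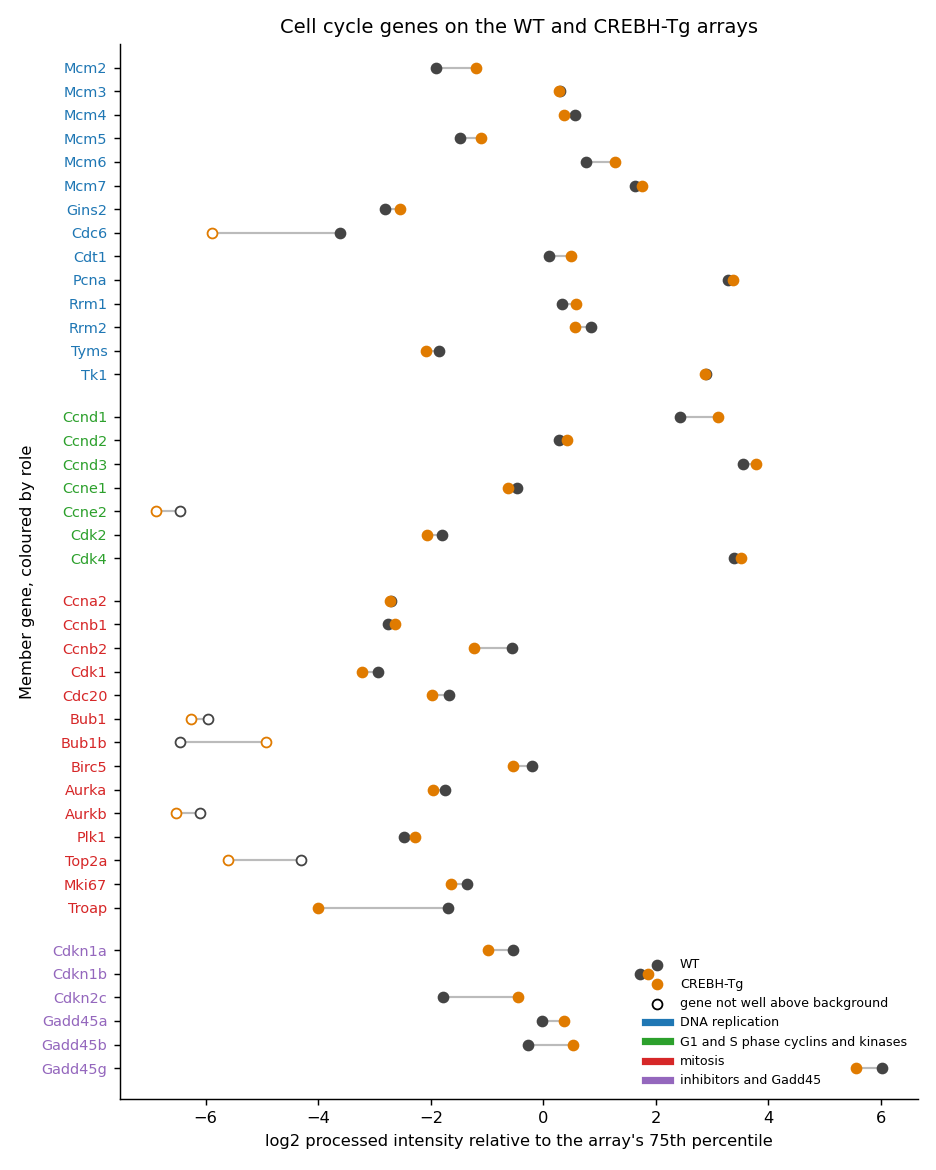
Signal of each of the 41 genes on both arrays, as log2 processed intensity relative to the array's 75th percentile; 1 row is 1 gene, a filled point a gene well above background and an open point one that was not. The points of most rows lie close together; Troap and Cdkn2c lie farthest apart among genes detected on both arrays, and Bub1, Bub1b, Aurkb, Top2a and Ccne2 are open on both. Levels are comparable within a row, not between rows.

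Signals below are log2 values relative to each array's 75th percentile, and ratios are CREBH-Tg over WT. Spot noise is the 95% range of single-spot log2 ratios of repeated probes: 0.40 in the dimmest of 3 signal classes, 0.17 in the middle and 0.095 in the brightest. The scanner software gives its own error for a single-spot ratio, an SE of 0.20 to 0.29 among the 35 genes. Its 95% range, 0.40 to 0.57, was wider for each of them than the spot noise of its class. Beyond the 95% range of this error, a rule added after the data were seen, 5 of the 35 were higher (Mcm2, Mcm6, Ccnd1, Cdkn2c and Gadd45b), where the background over all 13881 measured genes was 4.34%. A further 4 were lower (Ccnb2, Troap, Cdkn1a and Gadd45g), against 3.49% of all genes. Neither error covers differences between animals, pools, labelling or hybridisation. The median log2 ratio of all measured genes was 0.027.

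Among the replication genes detected on both arrays, Mcm2 and Mcm6 of the MCM helicase lay farthest from 0. Mcm2, a subunit of the ring, had a signal of -1.91 in WT and -1.19 in CREBH-Tg, 1.65-fold higher. Mcm6 was 0.76 in WT and 1.27 in CREBH-Tg, 1.42-fold higher. Both differences exceeded both errors. Mcm5 was -1.47 in WT and -1.10 in CREBH-Tg, a log2 ratio of 0.37 within the spot noise of its class. Mcm7 was 1.63 and 1.76, and Mcm3 0.29 and 0.27. Mcm4 was lower, at 0.56 in WT and 0.36 in CREBH-Tg, a log2 ratio of -0.20 that exceeded spot noise (0.17) but not the scanner error. The 6 subunits, which act in equal number in the ring, thus had log2 ratios from -0.20 to 0.72, with 4 above 0 and 2 below. Each was read by 1 probe in 1 spot.

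The factors that load and accompany the helicase also varied from gene to gene. Cdt1, a loading factor, was 0.11 in WT and 0.49 in CREBH-Tg, 1.30-fold higher and beyond spot noise alone. Gins2, a subunit of the GINS complex that travels with the helicase, was -2.82 and -2.54. The sliding clamp Pcna was close to equal, at 3.28 and 3.37. Cdc6, the other loading factor, was detected in WT only: its signal was -3.62 in WT, and in CREBH-Tg the probe was not well above background (measured at -5.90). By itself this probe was at least 1.91-fold lower, an approximate bound set by the lowest detected signal on the CREBH-Tg array (-4.55). The unprocessed spot read 70 over a background of 48.5 in WT and 50.5 over 58 in CREBH-Tg. With 1 dim spot per array, the direction of Cdc6 is not settled. The second Cdc6 probe was above background on neither array.

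Of the 4 genes that supply the DNA building blocks, 1 was above 0 and 3 were below, all by less than the 95% range of the scanner error. Rrm1 and Rrm2 encode the large and small subunits of ribonucleotide reductase, and they went opposite ways: Rrm1 was 0.34 in WT and 0.57 in CREBH-Tg, Rrm2 0.84 and 0.56. Their log2 ratios of 0.23 and -0.28 were both beyond spot noise and within the scanner error. Thymidylate synthase (Tyms) was -1.85 and -2.09, within spot noise. Thymidine kinase (Tk1) was 2.90 and 2.87, a difference that changed sign with scaling to the array median. In all, 8 of the 13 measured replication genes were above 0 (61.5%) and 5 below, with none at 2-fold; of all measured genes 56.2% were above 0.

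The D-type cyclins, which couple growth signals to entry into the cycle, were all above 0. Ccnd1, the D-type cyclin linked to hepatocyte proliferation, had a signal of 2.42 in WT and 3.10 in CREBH-Tg, 1.60-fold higher and beyond both errors. Its log2 ratio lay between 0.64 and 0.77 over 10 alternatives of processing. Ccnd2 was 0.28 and 0.42, and Ccnd3 was 3.56 and 3.79, with its second probe at 2.28 and 2.43. Their kinase partner Cdk4 was 3.39 and 3.51, and its 3 probes gave log2 ratios from 0.10 to 0.21. The E-type cyclin Ccne1 was -0.46 and -0.63 and its partner Cdk2 was -1.80 and -2.06, both within spot noise. The log2 ratio of Cdk2 was 0.021 with normexp background correction, so it has no settled direction. Of the 6 measured genes of this group 4 were above 0, against the same 56.2% of all genes.

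Of the 10 measured genes of mitosis, 8 had lower signals in CREBH-Tg, mostly by small amounts, and 2 (20%) were above 0. The 8 include Troap, which was listed with its difference already known from these data. Of all measured genes 56.2% were above 0. With median, quantile or loess scaling, or with normexp, 7 of the 10 were below 0. Ccnb2, a B-type cyclin, was -0.56 in WT and -1.23 in CREBH-Tg, 1.58-fold lower and beyond both errors. Cdc20, an activator of the ubiquitin ligase that ends metaphase, was -1.67 and -1.98. Birc5 (survivin) was -0.21 and -0.54 by its brightest probe, a log2 ratio of -0.33 beyond spot noise; a dimmer detected probe gave 0.14. Mki67, the Ki-67 proliferation antigen, was -1.35 and -1.64, and its second probe was lower as well, at -1.89 and -2.22. Aurka, the centrosomal aurora kinase, was -1.75 and -1.97, and Cdk1, the mitotic kinase, -2.93 and -3.23, with a log2 ratio of 0.028 after normexp, so it has no settled direction. Ccna2 was -2.70 and -2.73, a difference that changed sign with median, quantile or loess scaling and with normexp. Above 0 were Plk1, the polo kinase, at -2.47 and -2.29, and Ccnb1 at -2.77 and -2.63. Apart from Ccnb2, Birc5 and Troap, each single difference was within spot noise.

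**Figure D3:**
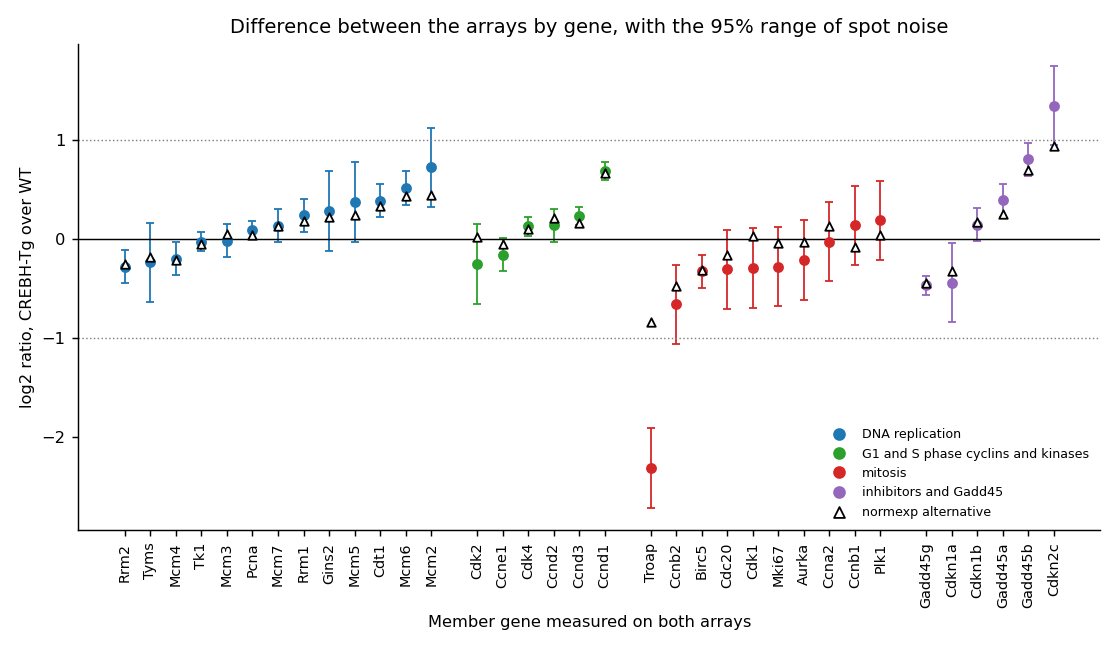
log2 ratio of CREBH-Tg over WT for the 35 genes measured on both arrays, by role; bars are the 95% range of spot noise, triangles the values after normexp background correction, and dotted lines mark 2-fold. Troap (-2.32) and Cdkn2c (1.34) pass 2-fold in the main values and not with normexp. In the main values 8 of 10 mitosis genes lie below 0, where 56.2% of all measured genes lie above 0. The 8 include Troap, which was listed with its difference already known.

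Troap, a microtubule-associated protein (trophinin-associated protein, tastin) needed for the spindle, showed the greatest difference of any of the 35. Its signal was -1.69 in WT and -4.00 in CREBH-Tg, 4.98-fold lower. The unprocessed spot read 145 over a local background of 51 in WT and 62.5 over 54 in CREBH-Tg, so on the second array it stood little above its surroundings. With normexp, which adds an offset of 50 and shrinks dim ratios by construction, the log2 ratio was -0.84. It was the only gene of the 35 at least 2-fold lower, where 0.67% of all genes were. Either way 2 of the 35 passed 2-fold, against 1.33% of all genes. At 2-fold, 1.21% of all genes were higher and 1.77% lower in the dimmest class, to which Troap and Cdkn2c belong. The shares were 0.475% and 0.108% in the middle class and 0.303% and 0.13% in the brightest. Detected probes within 10 rows and columns of its spot had a median log2 ratio of -0.013, against 0.027 for all genes. Troap was on the list with its difference already known from these data. It rests on 1 spot per array.

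Ccnb1 shows how far single spots of dim genes can part. Its 3 probes name the same transcript. The only one detected on both arrays gave a log2 ratio of 0.13. A second was -1.55 in WT, where it was well above background, and -5.99 in CREBH-Tg, where it was not, at least 8.0-fold lower by the same kind of bound. The third was detected in CREBH-Tg only, at -3.97, and measured at -5.44 in WT. Its unprocessed spot read 54 over a background of 55 in CREBH-Tg and 52.5 over 48 in WT. In CREBH-Tg it thus stood no higher than its surroundings. The unprocessed WT spot of the second probe read 151 over a background of 50, and its neighbours had a median log2 ratio of 0.012. The log2 ratio of the first probe was -0.081 with normexp. No direction can therefore be given for Ccnb1. Cdk1 likewise has 3 probes, of which 1 was detected on both arrays and 1 in CREBH-Tg only (-4.27 in WT, -3.65 in CREBH-Tg). The unprocessed spot of the latter read 66.5 over a background of 58 in WT and 68.5 over 63 in CREBH-Tg. Processed values of the Cdk1 probes point both ways, but the higher CREBH-Tg value comes from a spot close to its background. The RefSeq gene table lists pseudogene copies of Ccnb1, Ccnb2, Tyms, Pcna, Ccnd3 and Aurkb, and signal from such copies cannot be separated here.

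**Figure D4:**
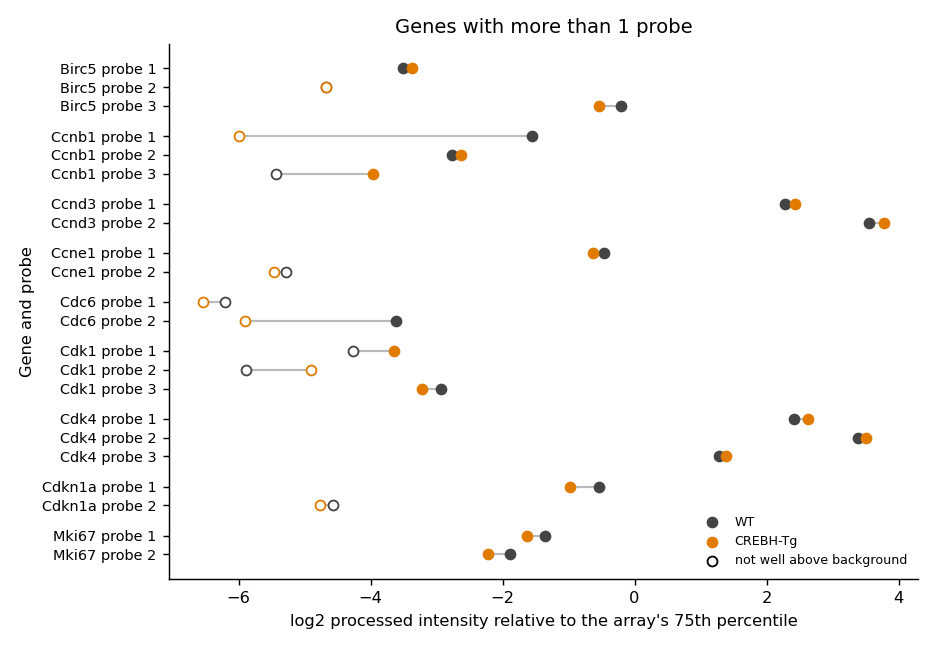
Signal of every probe of the 9 genes with more than 1, on both arrays, as log2 processed intensity relative to the array's 75th percentile; open points were not well above background. The 3 Cdk4 and 2 Ccnd3 probes agree in direction and the 3 Ccnb1 probes do not; levels are comparable within a row only.

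The inhibitors of the cycle differed in both directions. Cdkn2c, which encodes p18, an inhibitor of Cdk4 and its close relative, was -1.79 in WT and -0.45 in CREBH-Tg, 2.53-fold higher. The unprocessed spot read 159.5 over a background of 50 in WT and 303.5 over 54 in CREBH-Tg. It was the only gene of the 35 at least 2-fold higher, against 0.663% of all genes, and its log2 ratio was 0.94 with normexp, just under 2-fold. Its neighbours on the array had a median log2 ratio of 0.024. Cdkn1a (p21), a p53 target, was lower: -0.53 in WT and -0.98 in CREBH-Tg, 1.36-fold. Its probe is spotted 10 times, and the 10 log2 ratios ran from -0.64 to -0.29 with an SD of 0.11, so every spot was lower. This is the only gene of the 35 with repeated spots. Cdkn1b (p27) was 1.72 and 1.86, within spot noise.

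The Gadd45 proteins, small stress sensors that bind Pcna and p21, were divided by family member. Gadd45b was -0.27 in WT and 0.53 in CREBH-Tg, 1.74-fold higher and beyond both errors. Gadd45a was -0.018 and 0.37, 1.31-fold higher and beyond spot noise only. Gadd45g was 6.02 and 5.55, 1.39-fold lower and beyond both errors, with log2 ratios between -0.57 and -0.38 over the alternatives. At 1.5-fold, 4 of the 35 genes were higher (Cdkn2c, Gadd45b, Mcm2 and Ccnd1), against 2.33% of all genes. Ccnb2 and Troap were lower, against 2.23%.

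Replication and mitosis genes were then compared as groups. The median log2 ratio was 0.13 for the 13 measured replication genes and -0.29 for the 10 measured mitosis genes, a gap of 0.42. Of the replication genes 8 lay above the median of all genes, and of the mitosis genes 2 did. By spot noise 4 replication genes were higher and 2 lower, and 0 mitosis genes were higher and 3 lower, against 21.0% of all genes higher and 13.2% lower. The groups also differed in signal: 9 of 10 mitosis genes lay in the dimmest class against 4 of 13 replication genes. All genes of that class had a median of -0.0026, against 0.011 in the middle and 0.051 in the brightest class, and 82 of them were at least 2-fold lower against 56 higher. The part of low signal in the gap was not tested. With normexp the mitosis median was -0.065 and the gap 0.19. The sign of the gap was the same under all 10 alternatives of processing, and the gap ran from 0.19 to 0.42. Scaling by the median or by detected probes and the value table shift all genes of an array alike. They could therefore not change the gap beyond rounding.

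The same comparison over further genes of these pathways gave a smaller gap. For 53 measured of 59 other replication and S phase genes the median was 0.051, with 35 above 0 (66.0%) and 18 below. For 40 measured of 69 other mitosis genes on the array it was -0.027, with 18 above 0 (45%) and 22 below. Of all measured genes 56.2% were above 0. None of the other replication genes was 2-fold apart; the farthest was Pola2, a subunit of DNA polymerase alpha, at -3.16 in WT and -4.09 in CREBH-Tg, 1.91-fold lower. Its complex partner Prim1, the primase subunit, named after its value was seen, had a log2 ratio of 0.59. Of the other mitosis genes 1 was 2-fold lower, the kinetochore motor Cenpe, at -2.87 and -4.15, 2.43-fold. Both Pola2 and Cenpe were dim.

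**Figure D5:**
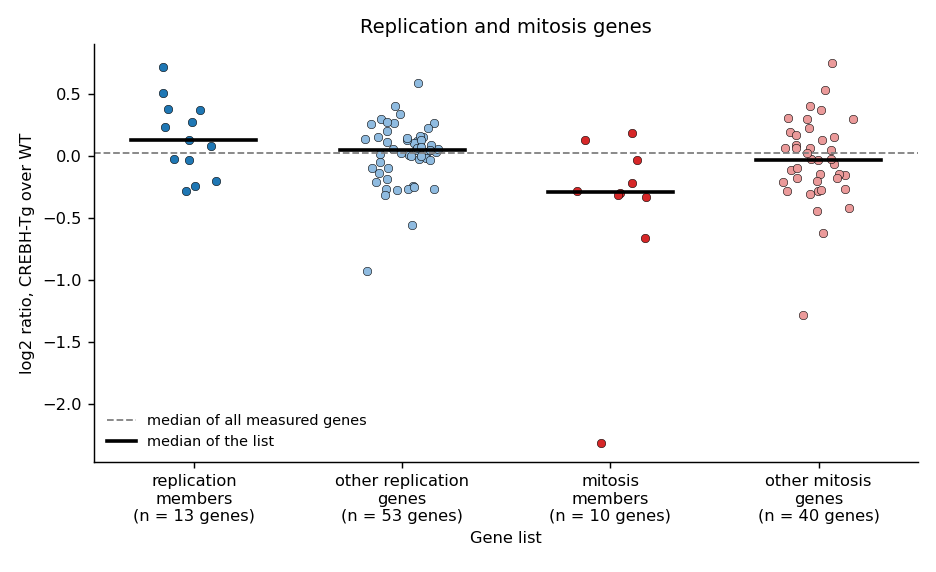
log2 ratio of CREBH-Tg over WT for single genes (points) of the replication and mitosis groups and of further genes of the same pathways, with list medians (black bars) and the median of all measured genes (dashed line, 0.027). The medians are 0.13, 0.051, -0.29 and -0.027 from left to right, and sideways scatter within a list has no meaning.

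The lists of RB and E2F regulators and of p53 response genes had medians near that of all genes. In each of the lists that follow, 54.5% of the measured genes were above 0, against 56.2% of all genes. The median over 22 of 24 genes of the RB and E2F network was 0.050, with 12 above 0, and the farthest was E2f8, an atypical E2F repressor active in polyploid hepatocytes, at -1.33 in WT and -0.58 in CREBH-Tg, 1.68-fold higher. Over 22 of 24 p53 response genes it was 0.027, with 12 above 0, and the farthest was Phlda3, a p53 target, at -1.24 and -0.51, 1.66-fold higher. The p53 list therefore held genes on both sides beside the lower Cdkn1a.

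Cells other than hepatocytes can contribute cycling transcripts. Of 15 lymphocyte markers 12 were measured, with 10 above 0 (83.3%, against 56.2% of all genes) and a median of 0.28. Of these 12 markers, 9 lay in the dimmest class. Their summed signal, in multiples of the 75th percentile, was 104 in WT and 130 in CREBH-Tg. Cd4 alone gave 89.9 and 114 of it, and the other 11 markers 14.3 and 15.9. Cd3d (2.14-fold higher) was farthest. Cd8a, Klrb1c and Ncr1 were detected on neither array. The median was 0.21 for 12 stellate and matrix markers, with Lum farthest at 0.72, and a summed signal of 78.2 and 82.4. Dcn alone gave 66.7 and 68.1 of that sum, and the other 11 markers 11.5 and 14.2. Such sums add levels of different probes and lean to the brightest. For 14 macrophage markers the median was -0.054, with 6 above 0 (42.9%) and 8 below, and the summed signal was 220.1 and 199.3. Trem2, farthest at 1.14, thus went against most of its list. Beyond spot noise 2 of the 14 were higher and 4 lower, against 21.0% and 13.2% of all genes. Cholangiocyte markers had a median of -0.17 (7 genes, Krt23 farthest at -0.55), and their summed signal was 3.86 in WT and 2.92 in CREBH-Tg. Medians were 0.055 for 9 endothelial markers (Emcn 0.48) and 0.10 for 7 erythroid and platelet markers (Ppbp 0.82). The median was 0.079 for 10 hepatocyte markers (Apoa1 0.35). It was 0.38 for 5 adipocyte markers, of which Adipoq (2.21) and Retn (1.55) were at least 2-fold higher and Cidea (-1.88) at least 2-fold lower. The other 2 of 7 adipocyte markers, Lep and Plin1, were detected in CREBH-Tg only, as were 762 of all 20660 named genes. Retn, Cidea, Lep and Plin1 were named after their results were seen. Summed signals in WT and CREBH-Tg were 108 and 118 (endothelial), 324 and 333 (erythroid and platelet, 58.6 and 54.6 without Hba-a1), 7.56 and 8.64 (the 5 adipocyte markers) and 6708 and 7189 (hepatocyte). Shares above 0 were 83.3% for stellate and matrix, 80% for hepatocyte, 80% for adipocyte, 77.8% for endothelial and 71.4% for erythroid and platelet markers. For cholangiocyte markers the share was 14.3%. The part of these cells in the cell cycle values was not tested.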

How the data were processed

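RNA was labelled with Cy3 as cRNA, per the labels' protocols, and the images were quantified by the authors in Feature Extraction (Agilent, version 10.10.1.1), with an mm9 grid, per the file headers. The deposited processed signal is an intensity, corrected for background array by array, without scaling of 1 array to the other; 300 spots marked as outliers were left out. Values were put on a log2 scale after division by the 75th percentile of the array (333 in WT, 309 in CREBH-Tg). The deposited value table held the same intensity times 1 constant per array.

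A probe was called detected if most of its spots carried the well-above-background flag. Probes were named through transcript accessions in a RefSeq gene table of GRCm38.p6, which named 27233 of 55677 probes. A gene took its brightest probe detected on both arrays. With 1 array per genotype no test was run, and arrays limit the precision. Members and lists were chosen with earlier results of these data known. All detected members are named; in each further pathway list the genes at 2-fold, or else the farthest, are named, and in each list of other cells the farthest; exceptions are marked. The steps were tested on simulated data, with planted changes larger than most differences described here and less noise than in the dimmest class. That run does not bear on small differences of dim genes. Python 3.11.15, R 4.3.3 and limma 3.58.1 were used.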

Additional observations from a re-analysis of the deposited data

How the results depend on the processing

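Scaling by the median or by detected probes and the value table shift all genes of an array alike. They could therefore not change the gap between replication and mitosis medians beyond rounding. The gap kept its sign under scaling by quantiles or by loess, with normexp, the mean over probes and other filters. It also did so without Ccna2, without Troap, without the nucleotide supply genes, and, added after the data were seen, with Cdc6 or the WT-only Ccnb1 probe at its bound. Counts at 2-fold, 1 higher and 1 lower, were less stable. They were 0 and 0 with normexp, 2 and 3 with no filter on dim probes, 4 and 2 at a threshold of 1.5-fold, and 0 higher at 3-fold. A stricter filter (intensity of 50) left 0 lower, and the positive-and-significant flag gave 3 lower. The offset of normexp shrinks dim ratios by construction, and the filters change which genes are measured. Over all genes 92 were higher and 93 lower (49.7% higher); median scaling gave 115 and 77 (59.9%), normexp 42 and 16, the stricter filter 58 and 26, no filter 605 and 782, and the other flag 333 and 425. Of the 35 genes 32 kept their sign under all 4 scalings; Mcm3, Tk1 and Ccna2 did not. Over all 10 alternatives 29 did; Cdk1, Cdk2 and Ccnb1 also turned with normexp. No paired analysis was possible because each genotype has 1 array. Most mitosis genes were dim, with wider spot noise.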
